A study of Homo sapiens with 12 samples.

Results

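GABRE, a gene of the X chromosome, and the 4 mature miRNAs made from the hairpins MIR224 and MIR452 inside it were followed in HCT116 cells and in their oxaliplatin-resistant derivative. The miRNAs were hsa-miR-224-5p, hsa-miR-224-3p, hsa-miR-452-5p and hsa-miR-452-3p, 4 of the 2588 mature miRNAs in the small RNA table, and GABRE was 1 of the 54261 genes in the total RNA table. The 5 were chosen on their measured difference between the lines, so that difference is given as a description, with no test. HCT116 is an established human colorectal carcinoma line, and the libraries labelled as its parental control came from it without selection. HCT116oxR was grown from HCT116 in oxaliplatin, a platinum compound that crosslinks DNA, starting at 0.1 µmol/L and ending with 1 year at 5 µmol/L. Whether the drug was present at harvest is not given in the labels. Each line gave 3 total RNA and 3 small RNA libraries from separately grown cultures. There was 1 resistant line and its parent, so p-values measure the spread between cultures of those lines and not between independently selected resistant lines.

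GABRE encodes the epsilon subunit of the GABA-A receptor, a chloride channel opened by the transmitter GABA, and belongs to a subunit gene cluster on Xq28 with GABRA3 and GABRQ. A miRNA is cut from a hairpin in a longer transcript, often an intron of a host gene, and either the 5p or the 3p arm is kept as the guide that leads Argonaute proteins to mRNAs. Bases 2 to 8 of the guide, the seed, make most of the pairing with the target, and pairing usually lowers the target's mRNA or protein. miR-224 and miR-452 are known as intronic miRNAs of GABRE that are raised together in several carcinomas, colorectal ones included.

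The mature sequences are shown first, since they give the reference form of each name and its seed. They are RefSeq entries for GRCh38.p14, written 5′ to 3′, and the capitals mark the seed. The annotation used for counting is not given, so whether the counted forms start at the same base was not checked.
hsa-miR-224-5p: uCAAGUCAcuagugguuccguuuag
hsa-miR-224-3p: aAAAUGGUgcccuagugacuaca
hsa-miR-452-5p: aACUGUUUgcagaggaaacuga
hsa-miR-452-3p: cUCAUCUGcaaagaaguaagug
The 4 seeds differ from each other, so the 4 forms belong to different seed families. Which of them act as guides was not measured. Each mature form has 1 locus in the reference. Of the 2588 deposited miRNA names, 2281 were matched to RefSeq.

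Both hairpins lie within GABRE and on its strand, as the host gene label says. GABRE spans chrX:151953124-151974676 on the minus strand, MIR452 lies at chrX:151959628-151959712 and MIR224 at chrX:151958578-151958658. In the direction of transcription MIR452 comes first, 14.964 kb from the start of GABRE, and MIR224 follows at 16.018 kb, with 969 bp between the hairpins. The hairpins are shown next because the 4 counted forms are their arms, which are in capitals.
MIR452: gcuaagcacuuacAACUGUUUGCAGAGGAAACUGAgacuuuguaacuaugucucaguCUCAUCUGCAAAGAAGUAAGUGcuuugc
MIR224: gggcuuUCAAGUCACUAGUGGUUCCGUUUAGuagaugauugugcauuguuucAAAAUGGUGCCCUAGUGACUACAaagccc

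GABRE was detected in every HCT116oxR library and in no HCT116 library. Its counts were 0, 0 and 0 in HCT116 replicates 1 to 3 and 37, 29 and 37 in HCT116oxR replicates 1 to 3. In counts scaled to the library total by TMM factors (CPM), the HCT116oxR libraries held 2.73, 2.16 and 3.01, with a mean of 2.64 ± 0.433 (SD, n = 3). At this depth 3 counts, taken as the limit that a count of 0 allows, correspond to 0.226 to 0.252 CPM in the HCT116 libraries. Set against that floor in each library, GABRE was at least 10.96-fold higher in HCT116oxR. GABRE nevertheless stood low among genes of the resistant line, at ranks 13550, 14227 and 13324 by count among 25034, 25259 and 25167 genes with a count. In bulk RNA, fewer cells that transcribe GABRE and less GABRE RNA per cell cannot be told apart. The gene table also has rows for the hairpin genes MIR224 and MIR452, and both held 0 counts in all 6 total RNA libraries.

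miR-224-5p was the most abundant of the 4 miRNAs. Its counts were 22, 17 and 37 in the HCT116 libraries and 3852, 3968 and 4103 in the HCT116oxR libraries. These are levels of 1.37, 1.09 and 2.31 CPM against 205, 225 and 234 CPM. The mean was 1.59 ± 0.640 CPM in HCT116 and 221 ± 14.7 CPM in HCT116oxR (SD, n = 3 each), a ratio of 139 with a 95% counting interval of 115 to 182. The form had counts in every parental library, and the lowest HCT116oxR library was far above the highest HCT116 library. The parental counts came to 0.637% of the HCT116oxR counts. Whether counts at so small a share all came from parental cells was not tested. By count it moved from ranks 610 to 766 of the detected miRNAs in the HCT116 libraries to ranks 127 to 133 in the HCT116oxR libraries.

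miR-452-5p was the next most abundant form. Its counts were 5, 13 and 4 in the HCT116 libraries and 1413, 1326 and 1327 in the HCT116oxR libraries. The 3 resistant libraries were nearly level, at 75.2, 75.2 and 75.6 CPM, whereas the parental ones held 0.310, 0.834 and 0.250 CPM. The mean was 0.465 ± 0.321 CPM in HCT116 and 75.3 ± 0.225 CPM in HCT116oxR (SD, n = 3 each), a ratio of 162 with a counting interval of 112 to 270. HCT116 replicate 2 held 13 of the 22 parental counts, and without it the ratio was 273. The 22 counts came to 0.541% of the HCT116oxR counts, and their origin was not tested either. The order of the miR-452-5p and miR-224-5p ratios is not settled, since their counting intervals overlap and without HCT116 replicate 3 they were 132 and 181. The rank by count was between 839 and 1291 in the HCT116 libraries and between 185 and 187 in the HCT116oxR libraries.

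The 3p forms were scarcer and also higher in the resistant line. miR-452-3p had 3, 2 and 3 counts in the HCT116 libraries and 136, 111 and 157 in the HCT116oxR libraries. Its mean was 0.167 ± 0.0337 CPM against 7.49 ± 1.34 CPM (SD, n = 3 each), a ratio of 44.8 with a counting interval of 23.2 to 108. The width of that interval reflects 8 parental counts in all, which were 1.98% of the HCT116oxR counts and of untested origin. miR-224-3p had 0 counts in each HCT116 library and 25, 12 and 10 in the HCT116oxR libraries, which is 0.860 ± 0.411 CPM (SD, n = 3). Against the floor of 3 counts in each parental library, 0.186 to 0.193 CPM, it was at least 4.56-fold higher. HCT116oxR replicate 1 held more counts of it than the other two together.

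**Figure D1:**
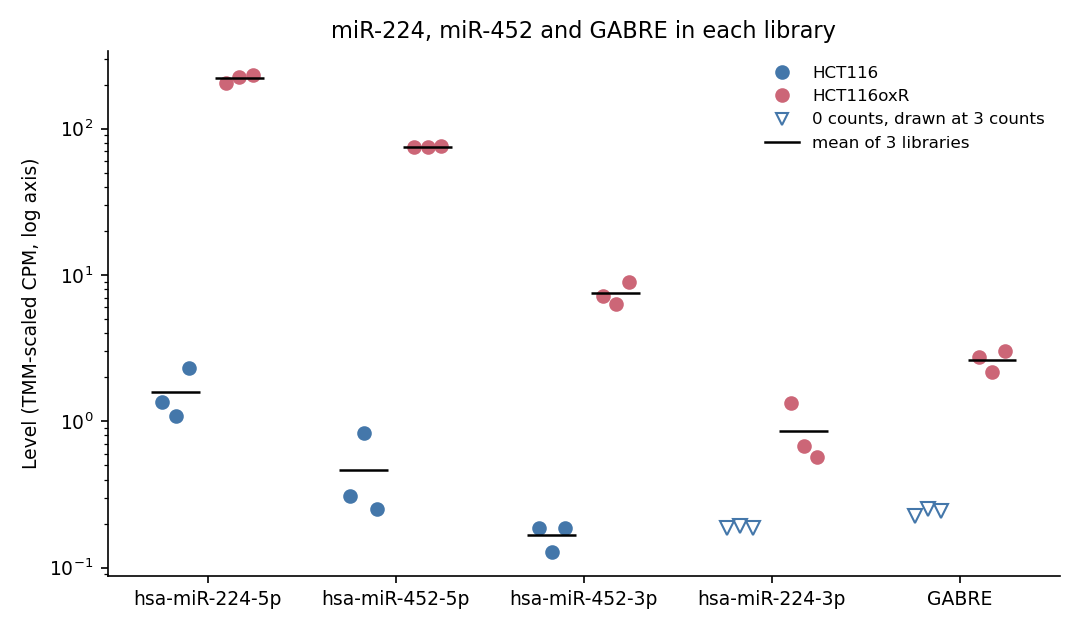
Levels of the 5 members in each library, in TMM-scaled CPM on a log axis, with 1 point per library, a bar at the mean of 3 libraries and an open triangle at 3 counts where a library had none. Every HCT116oxR point lies above every HCT116 point of the same member, from 205 CPM or more against at most 2.31 CPM for miR-224-5p down to 2.16 CPM or more against 0 counts for GABRE, which comes from the total RNA libraries and cannot be set beside the small RNA levels.

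No member had overlapping lines, in 4 of 4 miRNAs and in GABRE. Over all features tested, every HCT116oxR library was above every HCT116 library for 28.5% of 975 miRNAs and 25.7% of 17511 genes, and nothing is read from the members' count, since they were chosen on this contrast. edgeR's filter on low counts kept miR-224-5p, miR-452-5p, miR-452-3p and GABRE, while miR-224-3p was not kept. Among the 975 miRNAs that the filter kept, the fitted log2 fold changes of miR-452-5p (7.33), miR-224-5p (7.11) and miR-452-3p (5.42) held ranks 1, 2 and 3. These ranks describe the choice of members and are no test, and miR-452-5p, miR-452-3p and GABRE passed the filter only through the HCT116oxR libraries. Just outside them were miR-1252-3p at 4.73, miR-549a at 4.17 and miR-592 at 3.59. For comparison, 23.5% of the 975 miRNAs were called higher in HCT116oxR and 44.7% were called in either direction (edgeR's quasi-likelihood test, Benjamini-Hochberg adjusted p below 0.05 over all miRNAs).

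**Figure D2:**
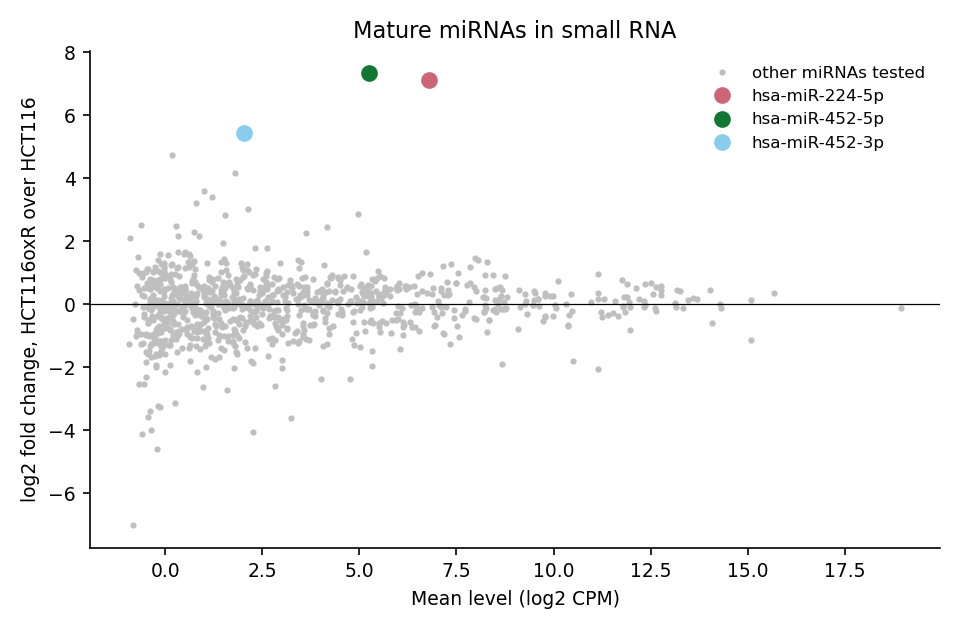
Fitted log2 fold change of HCT116oxR over HCT116 against mean level (log2 CPM) for the 975 miRNAs tested, with 3 of the 4 members coloured and miR-224-3p absent because it fell below the filter on low counts. The members lie at 7.33, 7.11 and 5.42, above the next highest miRNA at 4.73.

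Large ratios did not make the locus a large part of the miRNA pool. The 4 forms together gave 30, 32 and 44 counts in the HCT116 libraries and 5426, 5417 and 5597 in the HCT116oxR libraries. In the resistant line that was 0.0299% to 0.0316% of a library, whereas miR-21-5p, the most abundant miRNA, took 49.4% to 52.8% in the libraries of both lines. Library totals ran from 16089595 to 18147051 counts in small RNA and from 11950069 to 13558077 in total RNA.

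The 5p arm supplied most of the counts of both hairpins. For miR-224 in HCT116oxR it held 99.4% (exact 95% counting interval 99.0% to 99.6%), 99.7% (99.5% to 99.8%) and 99.8% (99.6% to 99.9%) of the counts of replicates 1, 2 and 3. This is 154, 331 and 410 counts of 5p for each count of 3p. In HCT116 all 76 counts of miR-224 were of the 5p arm, and with so few counts the share could be as low as 95.3%. A difference in the arm share of miR-224 between the lines was not detectable at this depth.

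miR-452 kept more of its 3p arm. In HCT116oxR the 5p arm held 91.2% (89.7% to 92.6%), 92.3% (90.8% to 93.6%) and 89.4% (87.7% to 90.9%) of the miR-452 counts, or 10.4, 11.9 and 8.45 counts of 5p for each count of 3p. Within the resistant line, the miR-224 and miR-452 intervals were apart in every library. In HCT116 the share was 62.5% (24.5% to 91.5%), 86.7% (59.5% to 98.3%) and 57.1% (18.4% to 90.1%). Summed over libraries, the parental share was 73.3% (54.1% to 87.7%), from 22 counts of 5p and 8 of 3p, and the resistant share was 90.96% (90.1% to 91.8%). The summed intervals do not overlap, but they cover counting error only and rest on 30 parental counts of untested origin. In each single HCT116 library the interval reached into or past the resistant values.

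**Figure D3:**
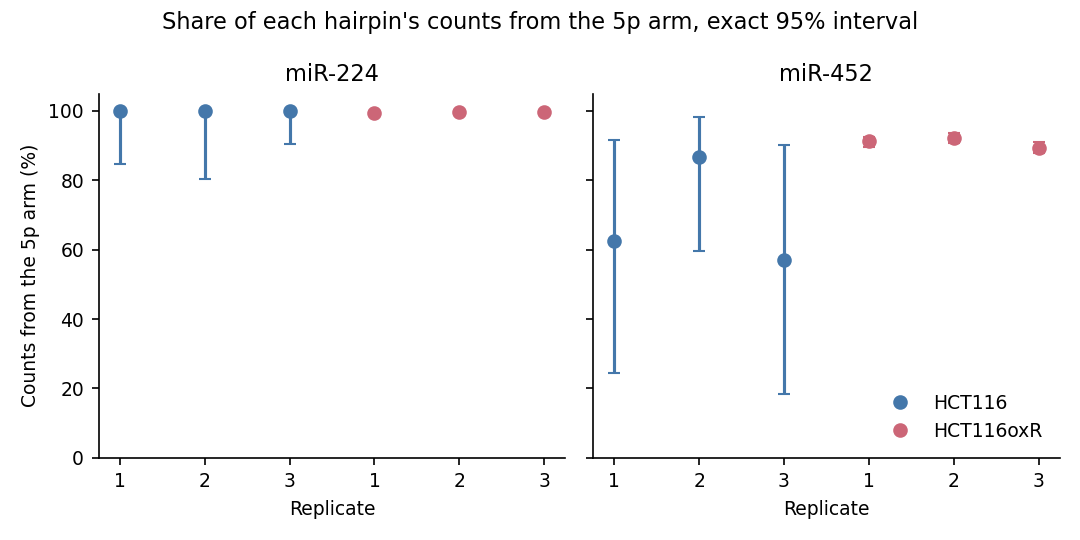
Share of each hairpin's counts that came from the 5p arm, in percent, for miR-224 (left) and miR-452 (right) in each library, with exact 95% counting intervals. The 6 HCT116 intervals are wide because they rest on 7 to 37 counts, whereas in HCT116oxR the shares are 99.4% to 99.8% for miR-224 and 89.4% to 92.3% for miR-452.

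The hairpins' main products kept a steady proportion among the resistant cultures. There were 2.73, 2.99 and 3.09 counts of miR-224-5p for each count of miR-452-5p in the HCT116oxR libraries, with a mean of 2.94 ± 0.189 (SD, n = 3). In the HCT116 libraries the ratio was 4.40, 1.31 and 9.25, spread to both sides of the resistant values, and 3.45 when counts were summed. A difference in this proportion between the lines was not detectable at the parental depth.

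Seeds, taken from the RefSeq sequences, were compared among the 2281 names matched to RefSeq, and the other names of the table were not checked. Among those matched, the seed of miR-452-5p was shared by miR-4676-3p of chromosome 10 and miR-892c-3p of the X chromosome, and no match was found for the other 3 seeds. They are printed because they would offer mRNAs the same seed, in capitals (RefSeq, GRCh38.p14).
hsa-miR-4676-3p: cACUGUUUcaccacuggcucuu
hsa-miR-892c-3p: cACUGUUUccuuucugagugga
miR-4676-3p had 35, 37 and 38 counts in the HCT116 libraries and 51, 54 and 36 in the HCT116oxR libraries, and its log2 fold change of 0.18 ± 0.27 (SE) did not pass the test (edgeR adjusted p = 0.629). miR-892c-3p had 10 counts over all 6 libraries and was not tested. In HCT116 the counts of miR-4676-3p exceeded those of miR-452-5p in every library, and in HCT116oxR miR-452-5p exceeded it in every library.

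The 250 bases before and 50 bases after the GABRE start are shown because the host and both hairpins are transcribed from the same strand downstream of it. The RefSeq sequence (GRCh38.p14, chrX:151974627-151974926, minus strand) is given 5′ to 3′ with the motif GGGCGG, the core of a GC box bound by Sp family factors, in capitals on either strand.
GABRE promoter: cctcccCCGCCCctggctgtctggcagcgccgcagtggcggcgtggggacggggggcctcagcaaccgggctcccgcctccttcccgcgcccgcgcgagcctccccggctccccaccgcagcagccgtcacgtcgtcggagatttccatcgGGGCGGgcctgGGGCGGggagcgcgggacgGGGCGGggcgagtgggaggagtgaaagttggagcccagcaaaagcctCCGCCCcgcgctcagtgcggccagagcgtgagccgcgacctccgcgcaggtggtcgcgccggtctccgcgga
The window held 5 matches to GGGCGG, which occurs at least once, on either strand, in 44.6% of 27305 promoter windows of the same length. No match was found, on either strand, to TATAAA, the TATA box core (in 11.95% of windows), to CCAAT (35.7%) or to the E-box CACGTG (7.43%). The window is rich in CG, with 41 CG dinucleotides and 76.7% G and C, against medians of 14 and 58.3% over all windows. It held more CG dinucleotides than 93.5% of promoter windows. This was not particular to GABRE among its neighbours. The window of GABRQ also held 5 matches to GGGCGG, with 73.7% G and C. That of VMA21 held 2 matches and 50 CG dinucleotides, more than 98.7% of windows. Those of MAGEA4, MAGEA3 and CSAG3 held 0 matches and 10, 19 and 20 CG dinucleotides. CG-rich promoters can be silenced by DNA methylation, which was not measured in these libraries.

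The genes around GABRE moved in both directions. Within 2 Mb the gene table held 98 other genes, 60 of them with at least 1 count, and 32 could be tested. Of these, 9 were higher and 5 lower in HCT116oxR (edgeR adjusted p below 0.05 over all genes), beside 22.3% of all 17511 genes called higher, 21.8% called lower and 44.1% called in either direction. Their median log2 fold change was 0.03, and that of all genes tested was -0.00. The largest changes among the called genes were in TMEM187 (1.57 ± 0.48, SE), whose nearest end lies 1998 kb away, and L1CAM (0.99 ± 0.11), an adhesion molecule that overlaps an antisense gene whose reads may be counted with it. LINC00894 (-0.55 ± 0.09), DUSP9 (0.50 ± 0.15), a MAP kinase phosphatase, and ARHGAP4 (0.48 ± 0.06) followed. DUSP9's call was lost without HCT116 replicate 2, with a log2 fold change of 0.37 and an adjusted p of 0.0595.

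Few counts came from the genes closest to GABRE in either line. Between the nearest tested genes, VMA21 at 543.76 kb on one side and GABRQ at 663.2 kb on the other, the table held 20 genes besides GABRE and its hairpins, of which 17 were at 0 in all 6 libraries and none exceeded 5 counts in all. The 17 include the hairpin genes MIR105-1, MIR105-2 and MIR767, and MIR224 and MIR452 were at 0 there too despite their mature counts. On the VMA21 side, PASD1 had 0, 0 and 1 counts in HCT116 and 1, 0 and 3 in HCT116oxR, and LOC105377213 had 1 count in all. VMA21, an assembly factor of the vacuolar proton pump, fell by 0.47 ± 0.05 (SE) on the log2 scale (edgeR adjusted p = 8.33e-16), with 2099, 2007 and 1985 counts against 1640, 1421 and 1528. Beyond it, RPL19P21 had 5 counts, all in HCT116, and HMGB3, a chromatin protein of the HMG-box family, rose by 0.38 ± 0.05 (adjusted p = 1.18e-12).

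On the GABRQ side, LOC105373369 had 3 counts, all in HCT116oxR replicate 3. GABRQ, the theta subunit gene of the same receptor cluster, had 165, 132 and 167 counts in HCT116 and 182, 161 and 121 in HCT116oxR. Its log2 fold change was -0.07 ± 0.14 (adjusted p = 0.738), and the lines overlapped. MAGEA3, a cancer-testis antigen gene 724 kb from GABRE, had 941, 839 and 857 counts against 971, 890 and 951 (0.03 ± 0.06, adjusted p = 0.740). CSAG2 (-0.04 ± 0.32, adjusted p = 0.935) and MAGEA2B (15 counts in HCT116 and 13 in HCT116oxR, not tested) were next. MAGE-A and CSAG genes have near-identical copies, so their counts are uncertain. Of 16 such genes of Xq28, 4 were tested and 0 passed edgeR's threshold, 0 had an unadjusted p below 0.05, 0 passed in DESeq2, and 7 were at 0 in every library. Over all genes 44.1% were called in either direction, so 0 of 4 is not read as particular to these genes.

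**Figure D4:**
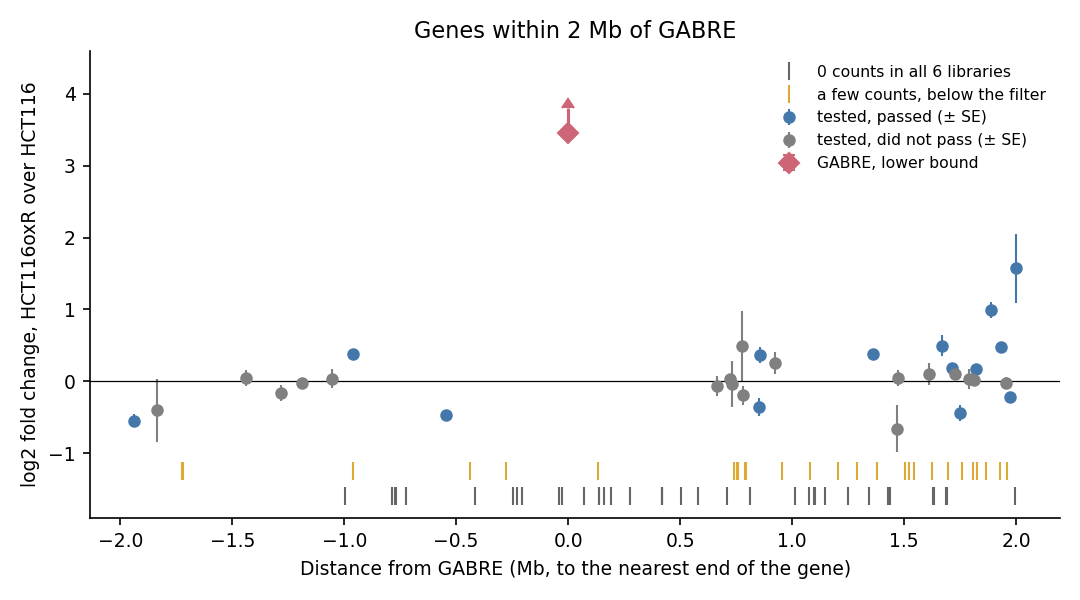
Log2 fold change of HCT116oxR over HCT116, with SE bars, against distance from GABRE in Mb, for the 32 tested genes within 2 Mb, with ticks for genes below the filter or at 0. GABRE is drawn at its lower bound of 3.45, the other genes lie between TREX2 at -0.66 and TMEM187 at 1.57, and no tested gene lies between VMA21 and GABRQ except GABRE.

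Neighbouring miRNA genes were barely detected. The table held 7 other mature miRNAs whose genes lie within 2 Mb of MIR224, namely miR-2114-5p and -3p, miR-4330, miR-105-5p and -3p, and miR-767-5p and -3p, and none passed the filter on low counts. miR-105-5p, from an intron of GABRA3, had 11, 6 and 4 counts in HCT116 and 11, 7 and 6 in HCT116oxR. miR-767-5p, of the same cluster, had 9, 0 and 4 counts against 10, 20 and 10. The lines overlapped for both once the counts were scaled to CPM.

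Other GABA-A receptor genes were mostly undetected. Of 18 genes listed besides GABRE, 11 were at 0 in all 6 libraries, GABRA3 among them, and GABRP, a subunit of epithelial tissues, had 2 counts in 1 HCT116 library and none elsewhere. The tested ones included GABRD (0.27 ± 0.15, SE; adjusted p = 0.121), GABRR2 (0.08 ± 0.25; 0.833) and GABRQ. By edgeR 0 of the 4 tested were called, 0 had an unadjusted p below 0.05, and DESeq2 called 0. This stands beside 44.1% of all genes called in either direction, and with 4 genes tested nothing is read from it. Without HCT116oxR replicate 2, GABRD passed at 0.38 ± 0.16 (adjusted p = 0.0478).

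Host and intronic miRNA were set side by side for 42 pairs of other genes, of which 32 pairs in 22 host genes had both partners tested. In 5 pairs both were called in the same direction, in 1 they were called in opposite directions, and in 26 one or none was called. With 44.1% of all genes and 44.7% of all miRNAs called in either direction, nothing is read from the number of pairs. With total counts and no TMM factor, 9 pairs were called in the same direction. The pairs called together were SKA2 (0.74) with miR-301a-3p (0.56), PTK2 (0.65) with miR-151a-3p (0.63) and miR-151a-5p (0.58), CTDSPL (0.48) with miR-26a-5p (0.21), and PANK3 (0.19) with miR-103a-3p (0.24), in log2 fold change. miR-26a-5p and miR-103a-3p are each also made from another host gene. PANK3's call was lost without HCT116 replicate 3 (log2 fold change 0.14, adjusted p = 0.0616). SMC4 rose by 0.49 while miR-15b-5p fell by 0.26 (edgeR adjusted p = 0.0452). The call of miR-15b-5p was lost without the TMM factor, in DESeq2, without the filter, and on leaving out any HCT116 library or HCT116oxR replicate 2 or 3 (adjusted p = 0.0595 to 0.192). Among the 32 pairs with both partners tested, the largest absolute value was 0.86 for a called miRNA and 0.74 for a host. These stand beside a lower bound of 3.45 for GABRE and ratios of 7.12 for miR-224-5p and 7.34 for miR-452-5p on the log2 scale. In listed pairs whose host was not tested, miR-152-3p (-0.979) and miR-504-5p (-0.976) were called with larger changes than 0.86. The 42 pairs do not cover all intronic miRNAs. Among miRNAs outside them, miR-592 (3.59), miR-629-5p (1.46), miR-95-3p (1.42) and miR-10b-5p (-2.05) changed more than 0.86. The members were chosen on their difference, so no comparison of size is drawn.

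Genes known from other work as targets of miR-224-5p did not move one way. Of 23 listed, 18 were tested, 4 rose and 6 fell, with a median log2 fold change of -0.09. TPD52, a vesicle trafficking protein, showed the largest change, from 4866, 4316 and 4154 counts in HCT116 to 2389, 2201 and 2133 in HCT116oxR. Its level was 355 ± 16.8 CPM against 171 ± 6.33 CPM (SD, n = 3 each), a fall by 1.05 ± 0.04 (SE) on the log2 scale with an edgeR adjusted p of 6.78e-52. GSK3B, a kinase that restrains Wnt signalling, fell by 0.19 ± 0.04, from 205 ± 7.86 to 180 ± 2.71 CPM (adjusted p = 4.31e-05). API5, an inhibitor of apoptosis, fell by 0.18 ± 0.04, from 285 ± 4.81 to 251 ± 4.80 CPM (adjusted p = 9.87e-06). The Raf inhibitor PEBP1 (-0.17) and the clathrin adaptor AP2M1 (-0.14) were also among the 6 that fell.

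The 4 that rose were PHLPP2, TRIB1, CD40 and CDC42. PHLPP2, a phosphatase that removes an activating phosphate from AKT, rose by 0.53 ± 0.08, from 34.9 ± 2.84 to 50.2 ± 2.18 CPM (SD, n = 3 each; edgeR adjusted p = 5.55e-09). TRIB1, a pseudokinase, rose by 0.42 ± 0.03, CD40, a TNF receptor family member, by 0.40 ± 0.11, and the small GTPase CDC42, which has processed copies that could share its reads, by 0.36 ± 0.12. PHLPP1, the paralog of PHLPP2, was at -0.15 ± 0.19 (adjusted p = 0.581) and SMAD4, the shared mediator of TGF-beta signals, at 0.05 ± 0.04 (adjusted p = 0.313), and neither passed. CXCR4, SFRP2, HOXD10, PTX3 and EYA4 had too few counts for the test.

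The list for miR-452-5p was divided as well. Of 8 genes, 6 were tested, 2 rose and 2 fell, with a median of 0.06. WNT5A, a non-canonical Wnt ligand, fell by 2.12 ± 0.59 (edgeR adjusted p = 0.00177) from 21, 15 and 11 counts to 2, 6 and 3. GSK3B, which is on both lists, was the other that fell. TCF7L2, a transcription factor of the Wnt pathway, rose by 0.61 ± 0.06, from 62.0 ± 2.21 to 94.6 ± 3.26 CPM, and the Polycomb gene BMI1 by 0.24 ± 0.05. CDKN1B, a CDK inhibitor, was at -0.12 ± 0.08 (adjusted p = 0.189). With 44.1% of all genes called, the 10 of 18 and 4 of 6 genes called in these lists, in both directions, are not read as particular to the targets, and protein levels were not measured.

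**Figure D5:**
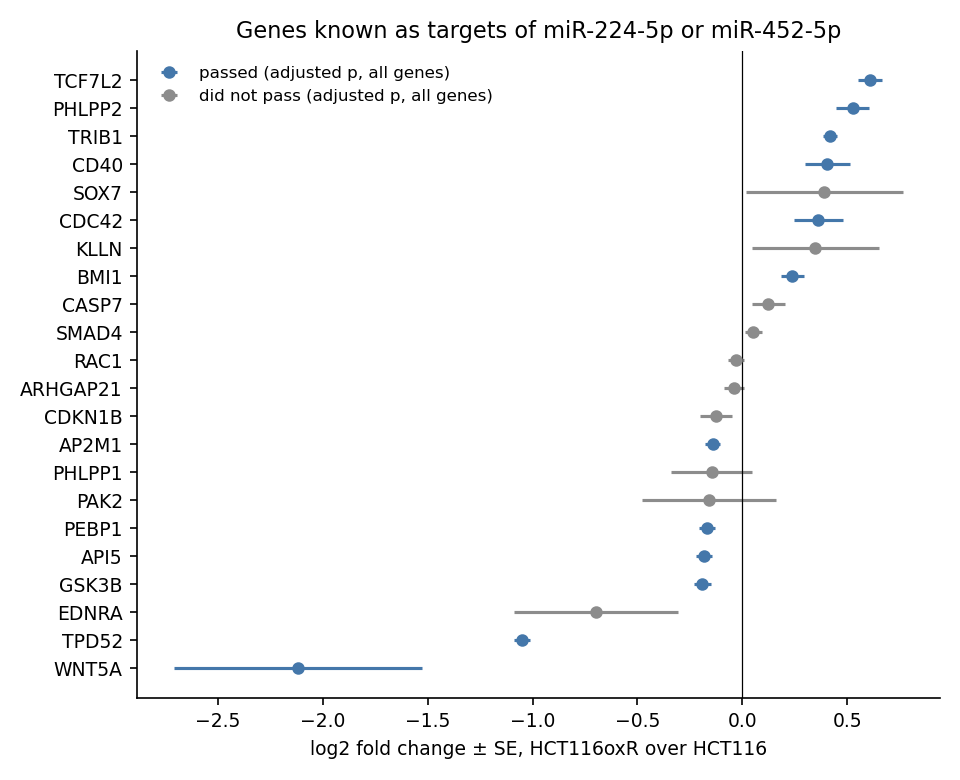
Log2 fold change of HCT116oxR over HCT116, with SE bars, for 22 of the 23 tested genes known as targets of miR-224-5p or miR-452-5p (the other is not reported here), in blue where the adjusted p over all genes passed and in grey where it did not. The genes run from WNT5A at -2.12 to TCF7L2 at 0.61 and fall on both sides of 0.

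Regulators described for the locus or for promoter methylation were expressed in both lines. All 9 listed were tested, 2 rose and 4 fell, with a median log2 fold change of -0.15, beside 22.3% of all genes called higher and 21.8% called lower. NFKB1, a subunit of NF-kB, fell by 0.84 ± 0.06 (SE), from 114 ± 3.01 to 64.0 ± 2.35 CPM (SD, n = 3 each; edgeR adjusted p = 1.56e-27). The DNA methyltransferase genes DNMT3B and DNMT1 fell by 0.40 ± 0.05 (adjusted p = 1.22e-11) and 0.33 ± 0.03 (adjusted p = 1.02e-16). The histone acetyltransferase gene EP300 fell by 0.22 ± 0.05 (adjusted p = 0.000190). The histone deacetylase gene HDAC3 rose by 0.16 ± 0.06 (adjusted p = 0.0158), and the methyltransferase gene DNMT3A by 0.21 ± 0.08 (adjusted p = 0.0336). HDAC3's call was lost without HCT116 replicate 2 (adjusted p = 0.0654), HCT116 replicate 3 (0.0514) or HCT116oxR replicate 3 (0.147). DNMT3A's call was lost in DESeq2 (adjusted p = 0.0554), without the filter on low counts (0.0559), and on leaving out HCT116 replicate 1 or 2 or HCT116oxR replicate 1 or 3 (0.0626 to 0.187). HDAC1, E2F1 and RELA did not pass. Whether any of these has a part in the level of the locus was not tested.

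The features whose log2 CPM over the 6 libraries was most like that of a member, by Pearson's r, were many, because the libraries form 1 group of values per line. For GABRE, 353 of 17510 genes had an r above 0.99. Among the 5 highest were SDR16C5, a retinol dehydrogenase (1, 1 and 1 counts in HCT116 and 79, 66 and 92 in HCT116oxR), YWHAZ (1.74-fold), SYT1 (5.25-fold) and C12orf75 (1.74-fold). For miR-224-5p the 5 highest of 974 were miR-1224-5p, miR-374c-3p, miR-95-3p, miR-629-5p and miR-142-3p, 1.58-fold to 4.76-fold higher in HCT116oxR. miR-452-3p came next in that order (r = 0.997), and miR-452-5p was at place 46 (r = 0.981). For miR-452-5p the 5 highest were miR-345-5p, miR-17-5p, miR-549a, miR-3613-5p and miR-18a-5p, of which miR-549a, at 4, 7 and 5 against 133, 104 and 97 counts, had the largest ratio (18.3-fold).

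Cell type markers were compared because GABRE and its miRNAs are expressed outside epithelium too. Their calls stand beside 22.3% of genes and 23.5% of miRNAs called higher, and 44.1% and 44.7% called in either direction. Colorectal epithelial markers summed to 3293 to 3395 CPM in HCT116 and 4006 to 4076 CPM in HCT116oxR, and 6 of 11 tested were higher and 1 lower, while VIL1, CDX1 and CEACAM5 were at or near 0. The 7 neuronal markers summed to 23.7 to 26.7 CPM in HCT116 and 60.0 to 62.5 CPM in HCT116oxR. Of these, SYT1, a synaptic vesicle protein (2.39 ± 0.12, SE), and GAD1, a GABA-synthesising enzyme (0.46 ± 0.12), were higher among 4 tested, and GAD2 was at 0 in every library. Most of the rise in the sum was SYT1, from 6.85 ± 0.188 to 36.0 ± 2.01 CPM (SD, n = 3 each), and SNAP25 and SLC17A7 did not pass. Fibroblast markers summed to 55.5 to 68.8 CPM in HCT116 and 46.8 to 52.2 CPM in HCT116oxR, and 1 of 2 tested was lower. Leukocyte markers summed to 10.1 to 13.1 and 5.30 to 6.72 CPM, with the 1 tested gene lower and 5 of 9 genes, PTPRC and CD3E among them, at 0. Endothelial markers summed to 1.65 to 2.82 and 3.02 to 4.43 CPM, and the 1 tested gene was not called by edgeR but had an unadjusted p below 0.05 and was called by DESeq2. Epithelial miRNAs summed to 29052 to 29728 CPM in HCT116 and 37048 to 38900 CPM in HCT116oxR, with 4 of 10 higher and 5 lower. Non-epithelial miRNAs summed to 5146 to 5219 and 5355 to 5709 CPM, with 4 of 9 tested higher and 1, miR-126-3p (-0.38 ± 0.05), lower. Most of that sum was miR-9-5p, and the higher ones were miR-142-3p (4.21 ± 0.713 against 20.1 ± 0.977 CPM, SD, n = 3 each), miR-142-5p (2.16 ± 0.445 against 7.38 ± 0.830 CPM), miR-143-3p (76.4 ± 6.69 against 149 ± 7.36 CPM) and miR-145-5p (a log2 fold change of 1.29 ± 0.09, SE). The part of these markers in the members' difference was not tested.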

How the data were processed

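Total RNA and small RNA of both lines were compared separately. The authors deposited raw counts, 1 table of genes and 1 of mature miRNAs. Per the submitters' processing notes, reads were aligned to GRCh38 with HISAT2 (total RNA) and BWA (small RNA). How reads were assigned to genes, with which annotation and strand setting, and what became of multi-mapping reads is not given in the sources used here, so counts of overlapping genes and near-identical copies are uncertain. The tables' names were matched to RefSeq by symbol or number, 51452 of 54261 genes.

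Counts were scaled by TMM, filtered with filterByExpr (minimum count 10, minimum total 15) and tested 2-sided in R 4.3.3 with edgeR 4.0.16 (quasi-likelihood F test, robust), with Benjamini-Hochberg adjustment over all features. SE is the fold change (log2, absolute) divided by the root of F. The common biological coefficient of variation was 4.77% (total RNA) and 12.4% (small RNA). The script was tested on simulated counts, whose spread was set the same for both kinds and below the 12.4% of small RNA. That run does not show how the test behaves at the small RNA spread. Replicates differed by more than sampling noise (chi-square per degree of freedom 2.21 to 3.01 in total RNA and 5.40 to 67.9 in small RNA). Ratios of members are of mean CPM, with exact binomial counting intervals that cover counting error only, since PCR duplicates cannot be told from molecules. Where all libraries of a line had 0 counts, the floor was 3 counts in each library. Alternatives were median-of-ratios scaling, no scaling factor, DESeq2 1.42.0, no filter, a replicate block, totals without miR-21-5p, a 1 Mb window and leaving out each library.

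The members and lists were chosen with earlier results of these data known, and lists of targets, regulators and markers came from general knowledge. Named features were the members, MIR224 and MIR452, the 5 nearest genes with a count on each side, up to 5 called members of each list by size, selected receptor and target genes, the 5 features most like a member by Pearson's r (log2 CPM, prior count 2), miRNAs sharing a seed and host pairs with both called. HDAC3, PEBP1, AP2M1, CDKN1B, GABRR2, GABRD, TREX2, miR-1252-3p, miR-592, miR-152-3p, miR-504-5p and the marker miRNAs fall outside this rule, picked once their values had been seen. Of the marker lists only a few members are named, and a few other features that this rule would name are not reported here.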

Additional observations from a re-analysis of the deposited data

How the results depend on the processing

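Every member was higher in HCT116oxR under all alternatives run. Leaving out each library in turn gave ratios of 122 to 181 for miR-224-5p, 132 to 273 for miR-452-5p and 40.8 to 49.5 for miR-452-3p, and lower bounds of 3.37 to 5.40 for miR-224-3p and 10.2 to 11.9 for GABRE. With the replicate number as a block the ratios were 146, 188 and 45.0, and edgeR called 7565 genes in place of 7721 and 405 miRNAs in place of 436. Same-numbered libraries did not deviate together (r of -0.0275 to -0.00705 in total RNA and -0.144 to 0.0789 in small RNA). These values show no strong shared deviation, but with 3 libraries a line they cannot exclude that same-numbered cultures were handled together.

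The call counts that moved by more than 1.5 times were those of GABA-A receptor genes, of genes near GABRE and of host pairs. Calls of GABA-A receptor genes went from 0 to 1 without HCT116oxR replicate 2 (range 0 to 1 over left-out libraries). Those near GABRE went from 14 of 32 tested within 2 Mb to 4 of 10 tested within 1 Mb, a smaller set (11 to 17 over left-out libraries). Host pairs went from 5 to 9 with total counts and no TMM factor (4 to 6). Of 724 values of 64 named features under alternatives, 704 stayed on their side of the threshold, 19 lost the call (miR-15b-5p, DNMT3A, HDAC3, DUSP9 and PANK3), 1 gained it (GABRD) and 0 called values reversed. Depth limits the HCT116 values of all 5 members, which rest on 0 to 76 counts a line.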
